A study of Mus musculus with 67 samples.

Results

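T and B cells recognise antigen with receptors that lymphocytes alone assemble, and transcripts of the receptor complexes and their partners are widely used as markers of these cells. The genes described here are 5 of T cells (Cd3d, Cd3e, Cd3g, Cd2 and Cd5) and 5 of B cells (Ms4a1, Cd79b, Cd22, Fcer2a and Blk). They were taken by gene symbol from the array annotation and were represented by 13 of 38385 probe sets, or 10 of the 19147 genes that the annotation names. Cd3e, Ms4a1 and Cd22 have 2 probe sets each, and the probe set with the higher mean log2 intensity over all 67 arrays stands for the gene unless the other is named. The tissues were liver, kidney, heart and aorta of male mice aged 12 weeks, with no treatment named. The mice were of 3 inbred strains, the hypertensive BPH/2J, the normotensive BPN/3J and the hypotensive BPL/1J (below BPH, BPN and BPL). The labels give systolic pressures of 142 ± 5, 94 ± 6 and 69 ± 1.7 mmHg for BPH, BPN and BPL, without saying what kind of error that is. There were 9 BPH, 5 BPN and 9 BPL arrays of aorta, 5 of each strain of heart and of liver, and 5 BPH, 5 BPN and 4 BPL arrays of kidney. Each strain comparison sets 1 inbred genome against another, so pressure and every other strain difference come together.

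The T cell receptor has short cytoplasmic tails and signals through the invariant CD3 chains, which carry the tyrosine motifs that Src-family kinases phosphorylate after antigen binding. The B cell receptor is a membrane immunoglobulin that signals in the same way through the Ig alpha and Ig beta chains. Around these complexes sit adhesion molecules, inhibitory co-receptors and kinases that set the threshold of the response. Lymphocytes are sparse in healthy heart, kidney and vessel wall, and are found in the fat, lymph nodes and adventitia that surround the aorta.

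All values are RMA-normalised array intensities on the log2 scale, 1 value per probe set and array. Differences were tested with limma in each tissue and adjusted by the Benjamini-Hochberg method over all 38385 probe sets, and a gene was called below an adjusted p of 0.05. A level at or below the highest lower quartile of any array of the tissue (3.03 for aorta, 3.32 for heart, 3.64 for kidney, 2.76 for liver) is treated as low, and folds are given only where both strain means lie above it. Array median intensities spanned 13.6 to 14.4 in liver, 29.8 to 31.5 in kidney, 24.6 to 26.3 in heart and 25.3 to 26.6 in aorta. Levels were compared only within a tissue, since the arrays of different tissues were not brought to 1 distribution and the aorta was amplified by another protocol. The labelled tissues carried their own markers, with mean log2 levels of 11.75 to 12.34 for the smooth muscle list in aorta, 13.30 to 13.59 for the heart list in heart, 12.47 to 12.67 for the kidney list in kidney and 12.92 to 13.04 for the liver list in liver. Aorta BPH array 5 stood apart in heart markers, whose level was 2.61 above the aorta mean against at most 0.61 on the other aorta arrays. Aorta BPL array 26 stood apart in liver markers, at 3.61 above the mean against at most 0.48. Heart BPH array 5 stood apart in T cell genes and is described on its own below.

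Promoters are shown for the 3 CD3 chain genes, which neighbour each other on chromosome 9 and were called lower together in BPH aorta, and for Cd22, which had the lowest adjusted p of the 10 genes there. The RefSeq table of assembly GRCm38.p6 holds promoters of 6 of the 10 genes, each running from 250 bases before to 50 bases after the start of the gene. Capitals mark matches on either strand to the E-box letters CANNTG, the Ets core GGAAGT, the Runx core TGTGGT and the octamer ATGCAAAT, motifs known from lymphocyte promoters. Matched motifs did not overlap each other in these 4 sequences, which are written 5′ to 3′ along each gene.
Cd3g, chr9:44980382-44980681, minus strand: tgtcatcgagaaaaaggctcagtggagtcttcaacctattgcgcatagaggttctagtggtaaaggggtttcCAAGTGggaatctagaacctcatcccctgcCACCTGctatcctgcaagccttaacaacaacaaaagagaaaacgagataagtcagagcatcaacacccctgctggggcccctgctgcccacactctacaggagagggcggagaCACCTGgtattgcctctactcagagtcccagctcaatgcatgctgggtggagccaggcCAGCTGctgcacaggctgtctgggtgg
Cd3d, chr9:44981536-44981835, plus strand: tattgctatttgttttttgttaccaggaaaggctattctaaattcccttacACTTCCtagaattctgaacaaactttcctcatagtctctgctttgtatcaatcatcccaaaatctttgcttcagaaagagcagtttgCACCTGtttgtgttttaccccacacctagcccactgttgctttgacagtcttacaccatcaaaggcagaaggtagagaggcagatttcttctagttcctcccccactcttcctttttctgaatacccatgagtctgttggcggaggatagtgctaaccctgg
Cd3e, chr9:45009562-45009861, minus strand: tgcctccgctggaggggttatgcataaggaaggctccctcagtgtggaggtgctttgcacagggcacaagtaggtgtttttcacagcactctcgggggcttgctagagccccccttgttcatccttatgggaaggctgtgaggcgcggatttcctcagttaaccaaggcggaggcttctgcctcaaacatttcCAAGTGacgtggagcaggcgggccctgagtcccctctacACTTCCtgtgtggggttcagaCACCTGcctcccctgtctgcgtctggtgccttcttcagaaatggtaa
Cd22, chr7:30878979-30879278, minus strand: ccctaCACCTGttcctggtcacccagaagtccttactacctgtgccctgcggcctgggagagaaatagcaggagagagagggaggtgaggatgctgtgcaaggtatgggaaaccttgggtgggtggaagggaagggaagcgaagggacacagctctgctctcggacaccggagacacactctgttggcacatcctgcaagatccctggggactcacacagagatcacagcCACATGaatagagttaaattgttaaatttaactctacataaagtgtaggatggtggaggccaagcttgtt
Cd3g and Cd3d face away from each other with starts 1355 bases apart, while Cd3e starts farther along the same chromosome. With positions counted from the start site and no position 0, E-boxes begin at -178, -148, -35 and 24 in Cd3g, at -112 in Cd3d, at -57 and 4 in Cd3e, and at -245 and -20 in Cd22. The Ets core was found on the opposite strand at -199 in Cd3d and -18 in Cd3e. None of the 4 windows holds the Runx core or the octamer. These letters are common, since 72.31% of the 32851 promoters of the same length in the table hold an E-box, 23.77% an Ets core, 16.76% the Runx core and 1.735% the octamer.

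In aorta, 8 of the 10 receptor genes were lower in BPH than in BPN, 3 of the 5 T cell genes and all 5 B cell genes. Of all probe sets, 4.7% were called lower in this comparison. The median difference over the 10 genes was -1.05 on the log2 scale, with -0.70 for the T cell genes and -1.11 for the B cell genes, against 0.00 over all probe sets. All 10 differences were below 0, and 9 had an unadjusted p below 0.05 in limma. The share of all probe sets below that unadjusted limit was not counted, here or in the later comparisons. Such counts therefore have no background beside them. In none of the 10 genes were all BPH arrays below all BPN arrays, which held for 2.36% of probe sets. In bulk RNA, fewer cells of a type and less RNA of these genes per cell cannot be told apart.

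The CD3 chains, the signalling subunits of the T cell receptor, were all 3 called. Cd3d read 7.95, 7.62, 7.0, 7.22 and 6.47 on BPN arrays 11 to 15, with a lowest, median and highest value of 5.75, 6.75 and 6.92 over the 9 BPH arrays and of 6.59, 6.98 and 7.23 over the 9 BPL arrays. BPN arrays 11 to 14 thus lay above every BPH array, and BPN array 15 lay within the BPH range. The BPH mean of 6.55 ± 0.41 (SD, n = 9) was 1.63-fold below the BPN mean of 7.25 ± 0.57 (SD, n = 5), a log2 difference of -0.70 ± 0.20 (SE; limma adjusted p 0.028).

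For Cd3e, the chain needed for assembly of the whole receptor complex, the BPN arrays read 7.68, 7.29, 6.96, 7.36 and 5.73. The BPH arrays ran from 5.23 over a median of 6.02 to 6.50, and the BPL arrays from 5.86 over 6.46 to 7.24. Again the first 4 BPN arrays were above all BPH arrays and array 15 was inside their range. Cd3e showed the largest difference of the T cell genes, -1.12 ± 0.27 (SE; limma adjusted p 0.0067), with means of 5.89 ± 0.45 (SD, n = 9) in BPH and 7.01 ± 0.76 (SD, n = 5) in BPN, a level 2.17-fold lower in BPH. The second Cd3e probe set was below the lower quartile limit on 22 of 23 aorta arrays and differed by -0.07.

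Cd3g, the third CD3 chain, read 5.47, 4.95, 4.76, 5.27 and 4.37 in BPN, 3.21 to 4.70 with a median of 4.40 in BPH, and 3.83 to 5.10 with a median of 4.63 in BPL. Its difference was -0.74 ± 0.23 (SE; limma adjusted p 0.048), with BPH 1.67-fold below BPN. The call rested on single arrays, and leaving out any of 10 of the 14 arrays ended it (BPH 2, 3, 6, 7, 8 and 9, BPN 11, 12, 13 and 14). For Cd3d it ended without BPN array 11, 12 or 14, while Cd3e stayed called without any 1 array, with adjusted p up to 0.036.

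The other T cell genes did not pass the test. Cd2, an adhesion and costimulatory receptor that binds CD48 in mice, read 5.28, 5.66, 5.11, 5.22 and 5.19 in BPN, 4.50 to 5.34 with a median of 4.96 in BPH, and 4.91 to 5.49 with a median of 5.17 in BPL. Its difference was -0.35 ± 0.13 (SE; limma adjusted p 0.10). Cd5, an inhibitory receptor of T cells that a subset of B cells carries too, lay between 3.33 and 4.45 on all 23 arrays and differed by -0.04 ± 0.15 (SE; limma adjusted p 0.94). Its BPH, BPN and BPL means were 3.82 ± 0.31 (SD, n = 9), 3.86 ± 0.30 (SD, n = 5) and 3.99 ± 0.27 (SD, n = 9).

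**Figure D1:**
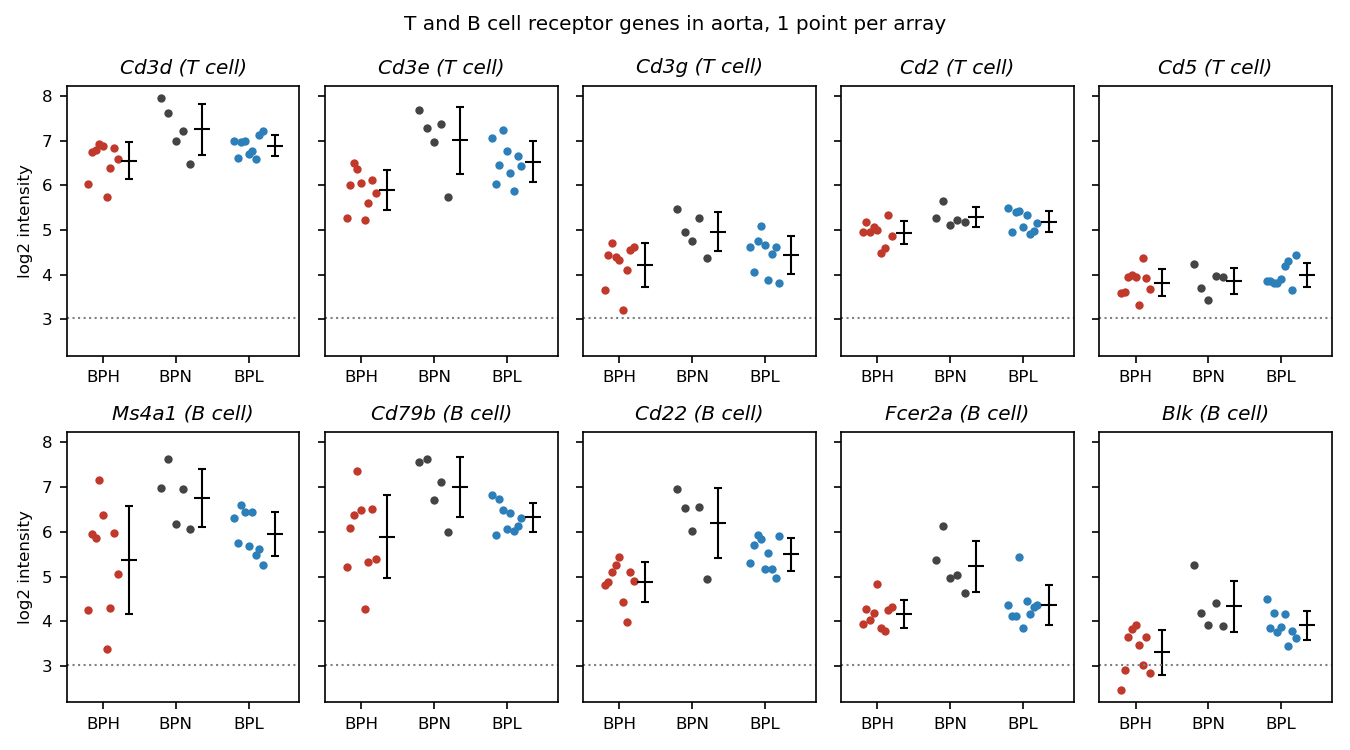
Log2 intensity of each of the 10 genes on the aorta arrays, 1 point per array, with bars for the mean ± SD of each strain (9 BPH, 5 BPN and 9 BPL arrays) and a dotted line at the lower quartile limit of 3.03. In each of the 8 panels where BPH was called lower the highest point is a BPN array, and the Cd5 points of all strains lie between 3.33 and 4.45.

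Among the B cell genes, Cd22 and Fcer2a had the lowest adjusted p. Cd22 encodes an inhibitory co-receptor that binds sialic acid and dampens B cell receptor signalling. It read 6.95, 6.52, 6.02, 6.55 and 4.94 in BPN, 3.99 to 5.43 with a median of 4.90 in BPH, and 4.96 to 5.92 with a median of 5.52 in BPL. The first 4 BPN arrays exceeded every BPH and every BPL array, and BPN array 15 was near the BPH median. The difference of BPH from BPN was -1.32 ± 0.26 (SE; limma adjusted p 0.00093), with means of 4.88 ± 0.44 (SD, n = 9) and 6.20 ± 0.78 (SD, n = 5), a 2.49-fold lower level. The second Cd22 probe set was below the limit on 21 of 23 arrays and differed by -0.07.

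Fcer2a encodes CD23, the low-affinity receptor for IgE found on follicular B cells. Its BPN arrays read 5.38, 6.13, 4.97, 5.04 and 4.63, its BPH arrays 3.78 to 4.84 with a median of 4.19, and its BPL arrays 3.85 to 5.44 with a median of 4.31. Here only the highest BPH array, number 7, passed BPN array 15. The difference was -1.07 ± 0.22 (SE; limma adjusted p 0.0019), a level 2.09-fold lower in BPH.

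Blk, a Src-family kinase of B cells that acts next to the receptor, read 5.27, 4.17, 3.91, 4.42 and 3.90 in BPN, 2.46 to 3.92 with a median of 3.46 in BPH, and 3.45 to 4.50 with a median of 3.85 in BPL. The groups met only at 3.90 to 3.92, but 4 BPH arrays lay below the lower quartile limit, so their levels are poorly measured. The difference was -1.03 ± 0.24 (SE; limma adjusted p 0.0044), or 2.04-fold. Cd22, Fcer2a and Blk stayed called without any 1 array, with adjusted p up to 0.0063, 0.012 and 0.027.

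Ms4a1 and Cd79b had differences as large but spread more widely in BPH. Ms4a1 encodes CD20, a membrane protein of mature B cells, and read 6.98, 7.64, 6.19, 6.97 and 6.06 in BPN, while its BPH arrays ran from 3.38 over a median of 5.85 to 7.17 and its BPL arrays from 5.25 over 5.76 to 6.60. The lowest BPH value was that of array 8 and the highest that of array 6, so the BPH range enclosed most of the BPN values. Its difference of -1.40 ± 0.44 (SE; limma adjusted p 0.048), 2.64-fold lower, ended as a call without BPH array 2, 8, 9 or 11 or BPN array 11, 12, 13 or 14. The second Ms4a1 probe set ran from 3.64 to 5.02 in BPH and from 3.84 to 5.20 in BPN, with a difference of -0.58 ± 0.21 (SE; limma adjusted p 0.088).

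Cd79b, the Ig beta signalling chain of the B cell receptor, read 7.57, 7.63, 6.72, 7.12 and 6.00 in BPN, 4.28 to 7.36 with a median of 6.09 in BPH, and 5.93 to 6.83 with a median of 6.31 in BPL. As for Ms4a1, BPH array 8 was lowest and BPH array 6 highest of its strain. The difference was -1.11 ± 0.35 (SE; limma adjusted p 0.045), 2.16-fold lower in BPH, and it was lost without BPH array 2, 3, 8, 9 or 11 or BPN array 11, 12, 13 or 14.

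The T and B cell genes ranked many of the arrays alike. Averaged over the 5 genes of a lineage and centred on the tissue mean, BPN arrays 11, 12 and 14 held the 3 highest levels of all 23 aorta arrays for both lineages, and BPH array 8 the lowest, at -0.94 for T and -1.29 for B cell genes. BPN array 15 was lowest of its strain in both, at -0.20 and -0.07. The lists of other cells set some of these arrays apart too. BPH array 8 was lowest of its strain for the pan-leukocyte (-0.89), macrophage (-0.51), natural killer cell (-0.50) and plasma cell (-0.38) lists. BPN array 11 was highest of its strain for the pan-leukocyte (0.71), macrophage (0.52), natural killer cell (0.45), plasma cell (0.31), adipocyte (0.35) and red blood cell (0.35) lists. BPN array 15 was lowest of its strain for the pan-leukocyte (-0.02) and natural killer cell (-0.33) lists. Other lists did not follow the receptor genes on BPN array 14, which was lowest of its strain for the macrophage (-0.49) and adipocyte (-1.15) lists. Its pan-leukocyte and natural killer cell levels were 0.03 and 0.06. The part of these differences in the values of the receptor genes was not tested. The count of called genes depended on these arrays. Without BPN array 11, 12 or 14 it was 4, without BPN array 13 or BPH array 2, 8 or 9 it was 5, without BPH array 5 it was 8, and without both BPH array 5 and BPL array 26 it was 7.

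Between BPL and BPN aorta, Fcer2a alone was called, at -0.87 ± 0.22 (SE; limma adjusted p 0.00999), 1.83-fold lower in BPL, against 5.2% of all probe sets called lower. The call ended without BPN array 12, when the adjusted p was 0.057. In all, 9 of the 10 differences were below 0, with a median of -0.49, and 3 had an unadjusted p below 0.05. Cd22 differed by -0.70 (limma adjusted p 0.093), Ms4a1 by -0.81 (0.31), Cd79b by -0.68 (0.27), Cd3g by -0.52 (0.20), Cd3e by -0.47 (0.34), Blk by -0.43 (0.32) and Cd3d by -0.37 (0.33), while Cd2 and Cd5 were at -0.10 and 0.13. Without BPN array 15, Cd3e (limma adjusted p 0.036) and Cd22 (0.0036) were called as well, which makes 3 genes.

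No gene was called between BPH and BPL aorta, where 11% of all probe sets were called in either direction. All 10 differences were below 0, with a median of -0.38. The 4 lowest adjusted p were those of Blk at -0.60 ± 0.20 (SE; limma adjusted p 0.052), Cd22 at -0.62 ± 0.22 (0.072), Cd3e at -0.65 ± 0.23 (0.072) and Cd2 at -0.25 (0.17). Between 1 and 2 genes were called when BPH array 5, 6, 7 or 10 or BPL array 27 was left out. The strain means ran BPN, then BPL, then BPH in 9 of the 10 genes, and BPL, BPN, BPH in Cd5. The shares of all probe sets with this order, or with aortic differences of 1 sign, were not counted. As the genes ranked many of the arrays alike, they are not independent of each other. BPL differed from neither neighbour beyond the test for 8 of the genes in that order, and for Fcer2a it differed from BPN only. The 2 comparisons with BPN share its 5 arrays.

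**Figure D2:**
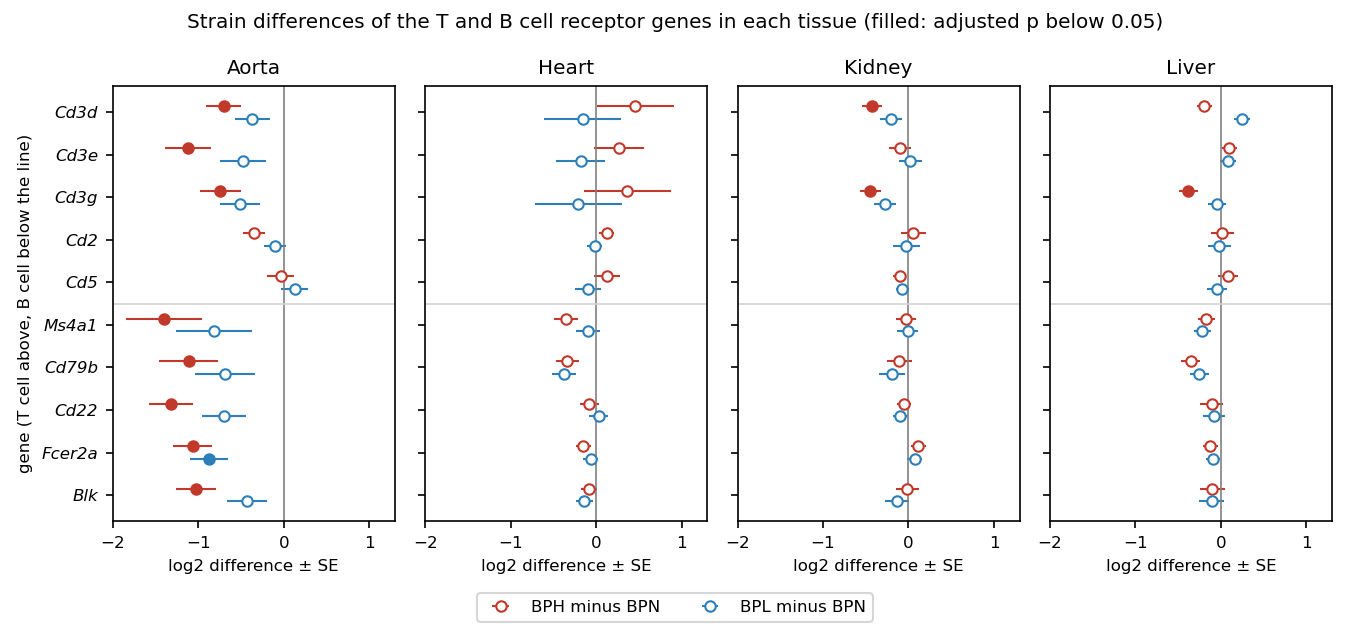
Log2 difference ± SE of BPH from BPN (red) and of BPL from BPN (blue) for each of the 10 genes in each tissue, with filled points where the limma adjusted p is below 0.05. In aorta 8 red points and 1 blue point are filled, in heart none, in kidney 2 red points (Cd3d and Cd3g) and in liver 1 red point (Cd3g).

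Further genes of both lineages were counted in aorta, in a T cell receptor pathway list and a B cell list. Both lists reach beyond receptor signalling, and below T cell pathway means the first list. Its 17 measured genes, outside the 5 above, had a median difference of -0.22 between BPH and BPN. Of these, 3 were called lower in BPH than in BPN and none higher. These were Themis, a regulator of signalling in developing T cells, at -0.94 ± 0.19 (SE; limma adjusted p 0.0016), the transcription factor Bcl11b at -0.70 (limma adjusted p 0.014) and the adaptor Lat at -0.70 (limma adjusted p 0.031). Of 21 genes of the B cell list, 5 were called lower and none higher, with a median of -0.27. The largest differences were those of Pou2af1, a coactivator of octamer-binding factors, at -1.38 ± 0.30 (SE; limma adjusted p 0.0029), of Tnfrsf13c, the receptor for the survival factor BAFF, at -1.23 (limma adjusted p 0.0089), and of the adaptor Blnk at -0.75 (limma adjusted p 0.015).

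In BPL aorta, 6 of the 17 T cell pathway genes were lower than in BPN and none higher. The largest differences were those of the costimulatory receptor Cd28 at -1.42 (limma adjusted p 0.0012), the interleukin 7 receptor Il7r at -1.22 (limma adjusted p 0.0040) and Themis at -0.90. Of the 21 B cell genes, Cd37 at -0.81 (limma adjusted p 0.0072) and Blnk at -0.64 (limma adjusted p 0.039) were lower, and H2-Ob at 0.42 (limma adjusted p 0.049) was higher. Between BPH and BPL, 3 T cell pathway genes were higher in BPH (Cd28 by 0.90, Prkcq by 0.66 and Cd8b1 by 0.49) and Cd4 was lower at -0.31, while no B cell gene of the list was called.

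Markers of other cells were read on the same arrays. None of the 10 pan-leukocyte genes was called between BPH and BPN aorta, although 6 had an unadjusted p below 0.05 in limma, their median difference was -0.43, and Ptprc, the common leukocyte antigen CD45, differed by -0.80 ± 0.29 (SE; limma adjusted p 0.095). The pan-leukocyte level was taken as the mean log2 level of the list, centred on the tissue. It ran from -0.89 to 0.51 in BPH, -0.02 to 0.71 in BPN and -0.31 to 0.17 in BPL. None of the 10 macrophage markers was called, with a median of -0.38 and levels of -0.51 to 0.30 in BPH, -0.49 to 0.52 in BPN and -0.36 to 0.21 in BPL. Of 10 granulocyte markers, S100a9, a calcium-binding protein of neutrophils, was higher in BPH at 1.66 ± 0.42 (SE; limma adjusted p 0.010), and the list had a median of 0.59, with levels of -0.49 to 1.51 in BPH, -0.57 to 0.38 in BPN and -0.60 to -0.21 in BPL. Of 7 plasma cell genes, which mark antibody-secreting cells of the B lineage, the transcription factor Irf4 was higher in BPH at 1.35 (limma adjusted p 0.016) and the proteoglycan Sdc1 lower at -0.73 (limma adjusted p 0.00014). That list had a median of -0.08 and levels of -0.38 to 0.48 in BPH, -0.31 to 0.31 in BPN and -0.31 to 0.23 in BPL.

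A piece of aorta may hold adjoining lymph node or fat. None of the 10 lymph node and homing genes was called between BPH and BPN, with a median of -0.10 and levels of -0.18 to 0.33 in BPH and 0.08 to 0.34 in BPN. Ltb, a lymphotoxin chain of lymphocytes, had the lowest difference of that list, -0.54 (limma adjusted p 0.15). Between BPL and BPN, 4 of the 10 were lower, among them Ltb at -0.99, Lta at -0.74 and Fcgr2b at -0.71, and the list level ran from -0.42 to -0.01 in BPL. Adipocyte levels ran from -0.70 to 0.40 in BPH, -1.15 to 0.35 in BPN and -0.33 to 0.57 in BPL, with Ucp1, the uncoupling protein of brown fat, higher in BPH at 1.37 (limma adjusted p 0.00020) and the white fat hormone Lep lower at -1.53 (limma adjusted p 0.0092). Of 8 natural killer cell genes none was called between BPH and BPN, with a median of -0.13. The part of adjoining node, fat or other leukocytes in the differences of the receptor genes was not tested.

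**Figure D3:**
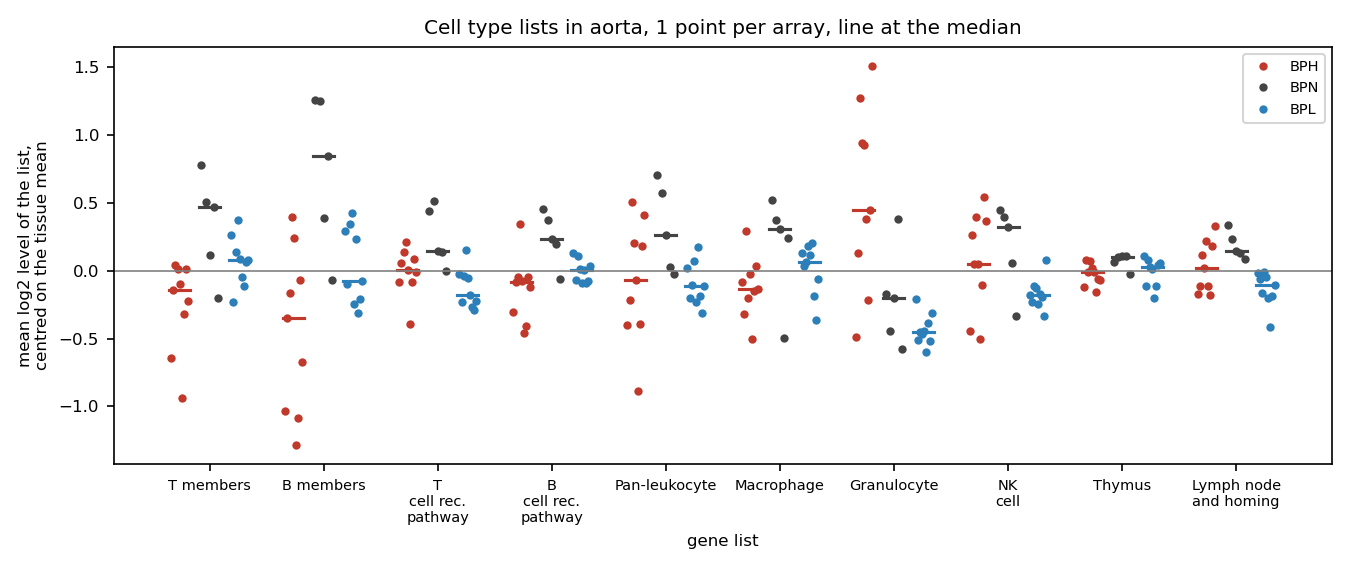
Mean log2 level of each gene list on each aorta array, centred on the mean of all aorta arrays, with 1 point per array and a line at each strain's median. The BPN medians of the T and B cell receptor genes, 0.47 and 0.85, stand above those of BPH, -0.14 and -0.35, while the thymus and lymph node lists lie closer to 0.

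The genes most like the receptor genes were sought from array to array within strains. Over the 23 aorta arrays and 15352 genes, after subtracting strain means, the genes most correlated with the mean of the T cell genes were Ms4a4b (Pearson r 0.91, Spearman rho 0.88), Acap1 (r 0.86), Tbc1d10c (r 0.85), Rac2 (r 0.82) and Gimap7 (r 0.79). Without the 2 arrays farthest from the median, r for Ms4a4b was 0.84. For the B cell genes they were Tnfrsf13c (r 0.82, rho 0.71, 0.72 without the 2 farthest arrays), Pou2af1 (r 0.81), Spib (r 0.79), Cd37 (r 0.79) and Fcmr (r 0.78). These correlations are descriptions of genes chosen as the highest of all. The genes of 1 array share its sample and its labelling.

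In heart no receptor gene was called in any strain comparison, with or without BPH array 5. Of all probe sets, 7.02% were called between BPH and BPN, 9.34% between BPL and BPN and 8.57% between BPH and BPL. At an unadjusted p below 0.05 in limma, 2, 1 and 0 of the 10 genes passed. The T cell genes had a median difference of 0.27 and the B cell genes of -0.15 between BPH and BPN. The T cell values turned on 1 array.

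Heart BPH array 5 carried T cell transcripts far above the other 14 heart arrays. Cd3d read 5.18, 4.76, 4.87, 5.00 and 8.18 on BPH arrays 1 to 5, against 4.72 to 5.40 in the BPN and BPL hearts. Cd3e read 5.75, 5.81, 5.49, 5.65 and 7.72, with 5.52 to 5.95 in the other strains. Cd3g read 3.72, 3.54, 3.49, 3.47 and 7.18, with 3.40 to 4.21 in the other strains. Cd5 read 4.37, 4.29, 4.13, 4.16 and 5.11 against 3.97 to 4.42 there, and Cd2, at 4.73, 4.79, 4.91, 4.83 and 5.18 against 4.43 to 4.89, was highest on that array by a smaller margin. The second Cd3e probe set showed the same array at 5.10, with 3.72 to 4.47 on the other 14.

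The B cell genes did not stand apart on it in this way. There Ms4a1 read 4.09, Cd79b 5.11, Cd22 4.87, Fcer2a 2.88 and Blk 3.79, and none of the 5 had its highest heart value on this array. Within BPH, array 5 was highest for Blk and for the second Ms4a1 and Cd22 probe sets. The second Ms4a1 probe set read 5.10 against 4.23 to 4.70 on the other BPH hearts, with up to 5.71 in BPN. The second Cd22 probe set read 3.61 against 3.21 to 3.47, with up to 4.21 in BPN. With the array, BPH and BPN hearts differed by 0.46 ± 0.45 (SE) in Cd3d, 0.27 ± 0.29 in Cd3e and 0.36 ± 0.51 in Cd3g. Without it the differences were -0.19, -0.14 and -0.36 ± 0.13 (limma adjusted p 0.13), so the sign of each turned on 1 of 5 arrays. The order of strain means BPH, BPN, BPL, seen for all 5 T cell genes of the heart, includes that array.

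**Figure D4:**
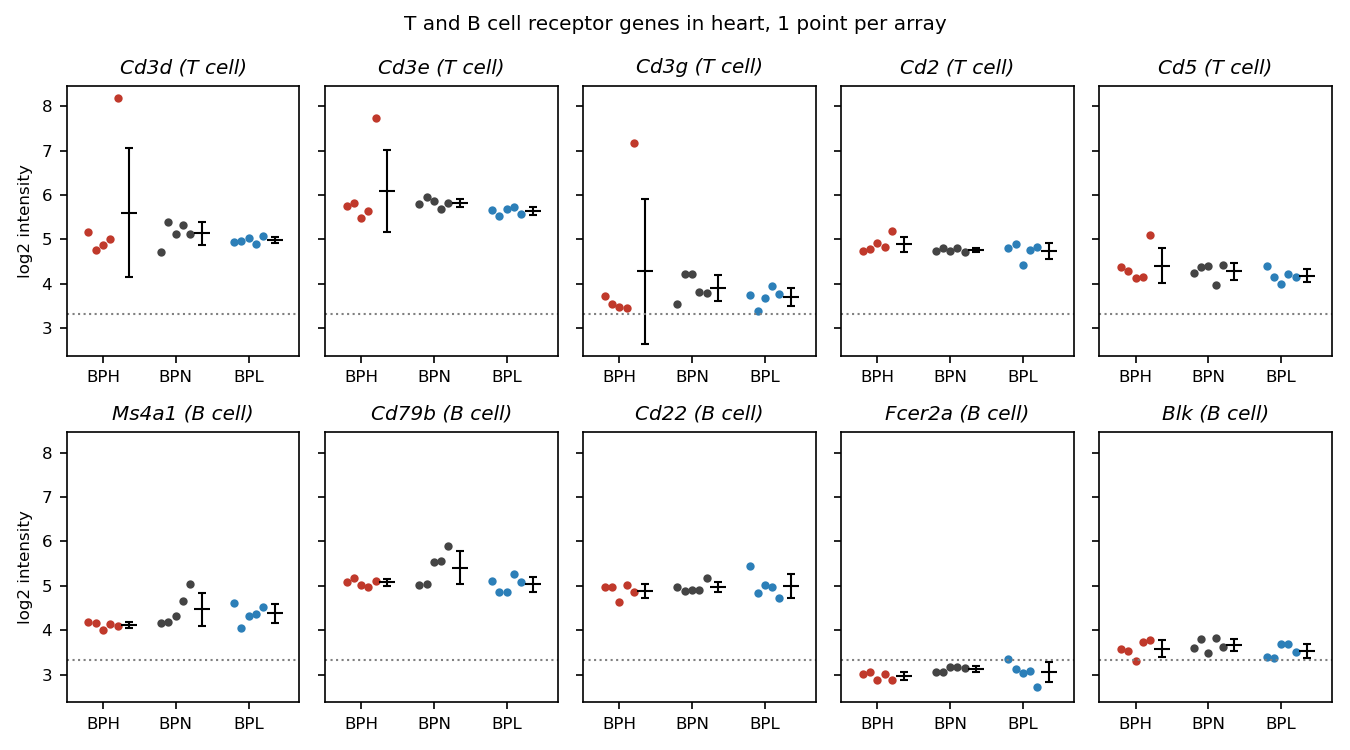
Heart log2 intensity of each of the 10 genes on 15 arrays, 1 point per array, with bars for the mean ± SD of each strain (5 arrays each) and a dotted line at the lower quartile limit of 3.32. A single BPH point, array 5, stands at 8.18 for Cd3d, 7.72 for Cd3e and 7.18 for Cd3g, above all other points of those panels, and no B cell panel shows it.

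Genes outside the 10 were also high on that array. On it, 74 probe sets lay more than 1 log2 unit above every other heart array, compared with 34 on BPN array 2 and 0 to 3 on the others. Rag1, which encodes a recombinase subunit that assembles antigen receptor genes, read 8.17 against at most 3.01 elsewhere in heart. Dntt, the polymerase that adds bases during that assembly, read 6.23 against 3.38, and Ccr9, a chemokine receptor of thymocytes, 6.74 against 2.86. Prss16, the thymus-specific serine protease, read 7.80 against 3.97, and Ccl25, the thymic ligand of Ccr9, 6.83 against 3.70. The coreceptor genes were high too, with Cd8b1 at 8.11 against 4.82 and Cd4 at 7.06 against 5.58. Signalling and T lineage genes followed, with Lat at 7.80 against 5.70, Themis at 6.33 against 5.02 and Bcl11b at 5.51 against 3.86. Genes of cell division were among the 74 as well, such as the kinetochore gene Spc25 at 6.50 against 4.62, the cyclin Ccna2 at 6.30 against 5.14 and the kinase Cdk1 at 7.31 against 6.17. The genes of this paragraph were named after their values were seen.

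Of the 11 thymus genes measured, 8 were highest on this array, 6 of them by more than 1 log2 unit. These 6 are Rag1, Dntt, Ccr9, Prss16, Cd8b1 and Themis, all named above after their values were seen. The lists were chosen with earlier results of these data known. How many of all probe sets were highest on this array was not counted, so counts of highest genes have no background beside them. The thymus list level was 2.04 above the heart mean against -0.24 to -0.02 on the other arrays. Not high among the thymus genes were Foxn1 at 3.38, Psmb11 at 3.23 and Rag2 at 3.06. The T cell receptor pathway list was highest there in 13 of 17 genes, 7 by more than 1 unit. Cd8b1 and Themis are in both this list and the thymus list. The proliferation list was highest there in 5 of 6 genes, 1 of them by more than 1 unit. Its level was 0.71 against at most 0.10. The B cell list was highest there in 2 of 21 genes, the macrophage list in 1 of 10 and the pan-leukocyte list in 5 of 10. The receptor genes of the T cell stood at a level of 1.84 against -0.26 to 0.12, and those of the B cell at -0.08. The kidney and liver arrays numbered BPH 5 showed no such level, with kidney Cd3e at 5.44 and Cd3g at 2.54, both lowest of the 14 kidney arrays, and liver Cd3d at 2.79. The labels do not say that arrays of 1 number come from 1 mouse, and the part of adjoining thymus in the heart values was not tested.

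**Figure D5:**
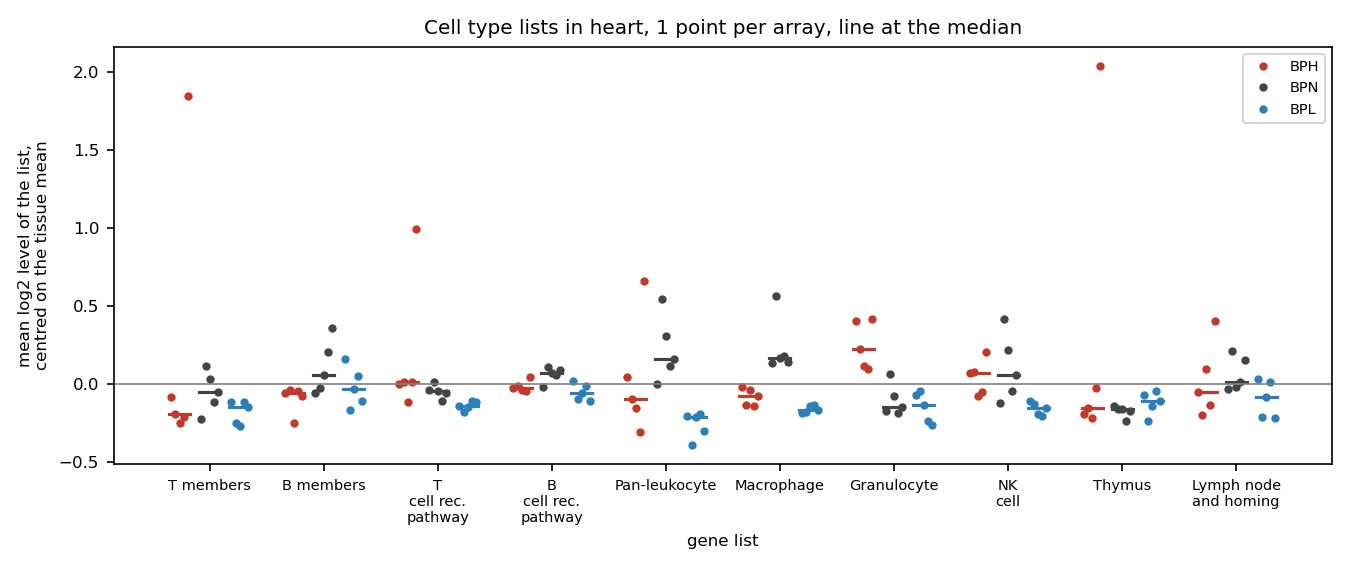
Mean log2 level of each gene list on each heart array, centred on the mean of all heart arrays, with 1 point per array and a line at each strain's median. A single BPH array stands at 1.84 for the T cell receptor genes, 1.00 for the T cell pathway and 2.04 for the thymus list, and at -0.08 for the B cell receptor genes.

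Among the B cell genes of heart, Ms4a1 and Cd79b were highest on BPN array 5. Ms4a1 ran from 4.01 to 4.18 in BPH, 4.16 to 5.04 in BPN and 4.06 to 4.61 in BPL, a difference of -0.35 ± 0.14 (SE; limma adjusted p 0.17) between BPH and BPN. Cd79b ran from 4.98 to 5.18 in BPH, 5.02 to 5.90 in BPN and 4.85 to 5.26 in BPL, and had the lowest adjusted p of the BPL comparison, at -0.38 ± 0.14 (SE; limma adjusted p 0.10). Cd22 spanned 4.64 to 5.45 and Blk 3.31 to 3.82 over all heart arrays, and Fcer2a was below the lower quartile limit on 14 of 15. Other leukocyte lists held called genes in heart. Between BPH and BPN, 5 of 10 macrophage genes were lower (4 without BPH array 5), among them the complement chains C1qb at -0.74 and C1qc at -0.62 and the surface receptor Adgre1 at -0.70, and 3 of 10 granulocyte genes were higher with and without that array (S100a9 by 1.47, S100a8 by 1.10 and Csf3r by 0.45). Of 10 pan-leukocyte genes, 1 was lower with BPH array 5 and 4 without it, with medians of -0.19 and -0.34. Of the T cell pathway Prkcq was higher by 0.80, and of the B cell list Syk, a kinase of both myeloid and B cells, by 0.51. Between BPL and BPN, 7 of 10 macrophage genes and 5 of 10 pan-leukocyte genes were lower, and all 10 of the latter when BPH array 5 was left out of the fit.

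The genes most like the heart T cell genes changed with the array that stood apart. With all 15 arrays and 15346 genes they were Lat (r 0.99), Fignl1 (r 0.98), Sh2d1a (r 0.98), Rasgrp1 (r 0.98) and Prss16 (r 0.98). Without BPH array 5 they were Nrm (r 0.91), Lat2 (r 0.89), Rac2 (r 0.89), Cd52 (r 0.85) and Ccl8 (r 0.84), and no gene is in both lists. In kidney the gene most like the T cell genes was Olfr770 (r 0.97) and that most like the B cell genes G6pc3 (r 0.95), over 14 arrays, and in liver they were Fer (r 0.95) and Azin2 (r 0.83), over 15 arrays.

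In kidney, Cd3g and Fcer2a were below the lower quartile limit on all 14 arrays, Cd3d on 5, Blk on 4 and Ms4a1 on 1, while Cd3e, Cd2, Cd5, Cd79b and Cd22 were above it on every array. Between BPH and BPN, Cd3d and Cd3g were called lower and the 8 other genes were not, against 3.39% of all probe sets called lower. Cd3d read 3.74, 3.54, 3.49, 3.45 and 3.70 in BPH and 4.08, 3.62, 4.14, 4.28 and 3.94 in BPN, a difference of -0.43 ± 0.12 (SE; limma adjusted p 0.046). Cd3g read 2.95, 3.13, 2.84, 2.72 and 2.54 in BPH and 3.42, 3.29, 3.44, 3.30 and 2.96 in BPN, a difference of -0.45 ± 0.12 (SE; limma adjusted p 0.033). The strains overlapped in both genes through BPN array 2 or 5, and at these levels no fold is given. The Cd3d call ended when any of 9 of the 10 arrays was left out (all but BPN array 2), and the Cd3g call with any of 7 (BPH array 3, 4 or 5 or BPN array 1, 2, 3 or 4). Cd3e, whose kidney arrays lay between 5.44 and 6.28, differed by -0.10 ± 0.13 (SE). Over all kidney arrays Cd2 lay between 4.27 and 5.19, Cd79b between 4.19 and 5.05, Cd22 between 4.63 and 5.10, Cd5 between 3.76 and 4.20, Ms4a1 between 3.42 and 4.11 and Blk between 3.51 and 4.31. The second Ms4a1 probe set differed from BPN by -0.30 ± 0.14 (SE; limma adjusted p 0.29) in BPH. In BPL it differed by -0.43 ± 0.15 (SE; limma adjusted p 0.13). The leading Ms4a1 probe set differed by -0.03 in BPH and -0.01 in BPL.

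The BPL kidneys, at 3.77, 3.58, 3.72 and 4.17 for Cd3d and 2.82, 2.99, 2.90 and 3.33 for Cd3g, were called different from neither strain. No gene was called between BPL and BPN (6.24% of probe sets called) or between BPH and BPL (6.33%). In limma, 1 of the 10 genes in the first and 0 in the second had an unadjusted p below 0.05. The second Cd3e probe set was called lower in BPL than in BPN, at -0.42 ± 0.12 (SE; limma adjusted p 0.041), with arrays at 3.89 to 4.31 in BPL against 4.43 to 4.83 in BPN, while its leading probe set differed by 0.02. Arrays did not overlap in the lower direction in 4.51% of all probe sets of that comparison. In BPH kidney, 5 of 10 pan-leukocyte genes (Ptprc at -0.79, Cd52 at -0.56 and Cd48 at -0.51 among them) and 4 of 10 macrophage genes (C1qb at -0.99, Adgre1 at -0.90, C1qc at -0.71) were lower than in BPN, but of the T cell pathway only Lcp2 at -0.29.

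Liver gave 1 called gene between BPH and BPN, where 3.85% of probe sets were lower. Cd3g read 2.55, 2.74, 2.40, 2.77 and 2.79 in BPH, 3.16, 2.84, 3.37, 3.00 and 2.77 in BPN and 2.86, 3.16, 2.86, 3.04 and 3.00 in BPL. BPH lay lowest, with 3 of its arrays below the limit, and met BPN only through BPN array 5. The difference from BPN was -0.38 ± 0.11 (SE; limma adjusted p 0.038), lost without BPH array 1, 2 or 3 or BPN array 1, 3 or 4. Cd79b, at 3.75 ± 0.18 (SD, n = 5) in BPH and 4.10 ± 0.17 (SD, n = 5) in BPN, differed by -0.35 ± 0.11 (SE; limma adjusted p 0.057).

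Between BPH and BPL liver, Cd3d was called lower in BPH, against 3.09% of all probe sets. It read 2.61, 2.97, 2.83, 2.83 and 2.79 in BPH, 2.90, 2.99, 2.96, 3.04 and 3.11 in BPN and 3.30, 2.96, 3.28, 3.50 and 3.18 in BPL. The strains touched at 2.96 to 2.97, and the difference of -0.44 ± 0.09 (SE; limma adjusted p 0.0039), 1.36-fold, stayed called without any 1 array. The BPH mean of 2.80 lay close to the lower quartile limit of 2.76, and BPH array 1 was below it, so the fold is poorly measured. Cd3g arrays of BPH all lay below those of BPL, which 3.82% of probe sets also did, but its difference of -0.33 ± 0.11 (SE; limma adjusted p 0.087) was not called. No gene was called between BPL and BPN liver (7.47% of probe sets called), where 3 had an unadjusted p below 0.05 in limma and the lowest adjusted p was that of Cd3d, at 0.25 (limma adjusted p 0.12). In BPH liver, 5 of 10 pan-leukocyte genes (Cd52 at -0.60, Ptprc at -0.59 and Laptm5 at -0.50 among them) and 6 of 10 macrophage genes were lower than in BPN. Cd3e, at 4.75 to 5.21 on all liver arrays, Cd2, at 3.68 to 4.42, and Cd22, at 3.70 to 4.51, differed by -0.11 to 0.10 between strains.

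Whether the aortic differences were larger than those of the other tissues was tested in 1 fit over all 67 arrays. That fit gives each probe set 1 variance for all tissues, although their spreads differed. For Ms4a1 the SD was 1.21 in BPH aorta (n = 9), 0.10 in BPH kidney and 0.07 in BPH heart (n = 5 each). Where aorta spreads more than the other tissues, the adjusted p of these tests can be too small. The BPH difference from BPN was lower in aorta than in heart for 4 genes, against 7.29% of probe sets called, than in kidney for 5 (9.08%) and than in liver for 4 (10.7%). Cd22 gave -1.24 ± 0.28 (SE; limma adjusted p 0.0012) against heart, -1.27 ± 0.28 (0.00072) against kidney and -1.21 ± 0.28 (0.0012) against liver. For Fcer2a the values were -0.92 ± 0.23 (limma adjusted p 0.0050), -1.18 ± 0.23 (0.00013) and -0.94 ± 0.23 (0.0027). Since Fcer2a was below the lower quartile limit on nearly all arrays of the other 3 tissues, its differences there are poorly measured. Blk gave -0.95, -1.01 and -0.93 (limma adjusted p 0.016, 0.0070 and 0.013), the first and last of which were lost without aorta BPN array 11.

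Cd3e gave -1.39 ± 0.34 (SE; limma adjusted p 0.0041) against heart, and -0.98 (limma adjusted p 0.026) without heart BPH array 5. Against kidney it gave -1.02 (limma adjusted p 0.047), a call that ended when any of 16 single arrays was left out, and against liver -1.22 (limma adjusted p 0.011). Ms4a1 differed against kidney at -1.37 (limma adjusted p 0.038), lost without any of 12 arrays. The BPL difference from BPN was lower in aorta for Fcer2a alone, at -0.81 (limma adjusted p 0.015) against heart, -0.95 (0.0042) against kidney and -0.78 (0.015) against liver, where 8.03%, 9.58% and 11.2% of probe sets were called. Between heart, kidney and liver no receptor gene differed in either strain comparison. There 2.3% (BPH against BPN) and 2.65% (BPL against BPN) of probe sets were called between heart and kidney, 3.11% and 3.92% between heart and liver, and 2.65% and 3.04% between kidney and liver. Amplification differed between aorta and the other tissues, and its part in these tests cannot be told apart from that of the tissue.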

How the data were processed

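The 67 arrays carry 38385 probe sets, of which 24478 have 1 gene symbol in the platform annotation, 65 several and 13842 none listed. The values the authors deposited are linear intensities, 1 for each probe set and array, made with RMA per the labels' protocols. They were converted to log2 here with no pseudocount added. RMA brings arrays to a common distribution, which removes differences in total RNA. The array's genome build is not given in the sources used here, and promoters are credited to RefSeq GRCm38.p6. Tests used limma 3.58.1 under R 4.3.3 on the arrays of 1 tissue at a time (lmFit and eBayes, a mean per strain), with Benjamini-Hochberg adjustment over all probe sets, and differences between tissues with a joint fit of 12 groups. The procedure was tested on simulated data. The members and lists were chosen with earlier results of these data known. Named from each list were up to 3 called genes in each direction by size of difference, or the genes of highest and lowest difference where none was called, and per tissue and lineage the 5 genes of highest correlation. List genes that no probe set names are not analysed here.

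Which animal an array came from is not labelled, and the labels give 5 mice per strain against 9 arrays of BPH and BPL aorta, so p-values measure only the spread between these arrays, which may be technical. No batch is given, and the number of arrays limits the precision. Replicate numbers were not taken to pair the samples in heart, kidney or liver. In no comparison did every same-numbered pair have a correlation of deviations over 0.1. That rule cannot exclude pairing, and between BPL and BPN liver all 5 pairs were positive, at 0.04 to 0.27. Alternatives were a pseudocount of 16, a filter at the median level, a second quantile normalisation, array weights, a trended and robust variance, fits of 2 strains or of all tissues, a replicate block, and each array left out in turn.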

Additional observations from a re-analysis of the deposited data

Results flagged for a closer look

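Among groups of 4 to 9 arrays, 9 of 120 combinations of gene, tissue and strain held 1 array far from the others by Dixon's criterion, where chance gives about 6 at 1 in 20. Of these, 4 are heart BPH array 5, known to be high in these genes when they were chosen, so that 5 others remain, fewer than the 6 that chance gives. That array had Cd3d at 8.18, Cd3e at 7.72, Cd3g at 7.18 and Cd5 at 5.11. The others are heart BPL array 3, the lowest of its group for Cd2 at 4.43, kidney BPN array 4, lowest for Ms4a1 at 3.42, liver BPH array 4, highest for Cd79b at 4.08, and for Fcer2a aorta BPH array 7, highest at 4.84, and aorta BPL array 24, highest at 5.44.

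The strain differences that themselves differed between tissues by the interaction test are those of the report. For BPH against BPN, aorta against heart, the differences of the differences were -1.39 in Cd3e, -0.95 in Blk, -1.24 in Cd22 and -0.92 in Fcer2a. Aorta against kidney gave -1.02 in Cd3e, -1.01 in Blk, -1.27 in Cd22, -1.18 in Fcer2a and -1.37 in Ms4a1. Aorta against liver gave -1.22 in Cd3e, -0.93 in Blk, -1.21 in Cd22 and -0.94 in Fcer2a. For BPL against BPN, Fcer2a gave -0.81 against heart, -0.95 against kidney and -0.78 against liver. Each is on the log2 scale, with aorta the lower.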

How the results depend on the processing

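No called difference reversed among the alternatives run, and counts of called genes moved as follows. The 8 genes lower in BPH than BPN aorta were 5 with probe sets above the median level only, which keeps 6 of the 10 genes, 5 with array weights, 4 with only these 2 strains in the fit, and 4 to 8 with each array left out. It was 6 with a pseudocount of 16 (without Cd79b and Ms4a1), 7 after a second quantile normalisation and 7 with a trended and robust variance (each without Ms4a1), and 8 in the joint fit, which lost Cd3g and gained Cd2. The 1 gene of BPL against BPN aorta became 0 with the level filter and 4 in the joint fit, and 0 to 3 with each array left out. The 0 of BPH against BPL aorta became 2 with the level filter, 1 after a second quantile normalisation, 1 with a trended and robust variance, 3 with only these 2 strains, 3 in the joint fit, 1 without BPH array 5 and BPL array 26 (chosen after seeing the data), and 0 to 2 with each array left out. The 2 kidney genes became 0 with a pseudocount of 16, 0 with the level filter, 1 after a second quantile normalisation, 1 with the replicate block and 0 in the joint fit, and 0 to 1 with each array left out. The 1 gene of BPH against BPN liver became 0 with a pseudocount of 16, with only these 2 strains, with the replicate block and in the joint fit, and 0 to 2 with each array left out. The 1 gene of BPH against BPL liver became 0 with the level filter, 2 with only these 2 strains and 0 in the joint fit, and stayed 1 with each array left out and with the replicate block. Leaving out arrays gave 0 to 1 genes for BPL against BPN in heart and in liver, and 0 to 0 for the other heart and kidney comparisons. Of the tests between tissues for BPH against BPN, aorta against heart gave 3 to 6 with each array left out, aorta against kidney 2 with the level filter and 3 to 6, and aorta against liver 2 with the level filter and 3 to 5. For BPL against BPN, aorta against heart gave 2 with a pseudocount of 16, 0 with the level filter and 0 to 2, aorta against kidney 0 and 1 to 2, and aorta against liver 0 and 0 to 2, in the same order. Cd3e, aorta against kidney, was also lost after a second quantile normalisation, with a trended and robust variance and with array weights. Tests between heart, kidney and liver gave 0 to 0. The cause of these changes was not tested, apart from the fewer genes under the filter and the fewer arrays. The replicate block changed no other count in heart, kidney or liver. No paired analysis was possible in aorta because its groups share fewer than 2 replicate numbers.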
